A study of Homo sapiens with 18 samples.

Results

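The genes described here are 9 chemokines and chemokine receptors, chosen by symbol from the 57445 genes of the count table: the receptors ACKR3, CXCR4 and CCR1, and the ligands CX3CL1, CXCL1, CXCL2, CXCL3, CCL2 and CCL20. They were followed through 18 RNA sequencing libraries of MiaPaCa-2, an established human pancreatic cancer line with an epithelial origin and a partly mesenchymal character. There were 6 groups of 3 libraries: cells called leaders, recovered from the sciatic nerve after serial injection, at passages 1, 2, 3 and 4, cells called laggers, recovered at passage 1, and the parental line, which was grown in vitro and never injected. Every library carries the genotype label WT and comes from the same cell line. The labels thus separate the groups by passage through nerve, and by leader or lagger, and not by an allele or drug. Between injections a share of the leader cells was grown in culture, so each leader passage descends from the one before it. The species of the host, the point between recovery and culture at which RNA was taken, and whether replicates came from separate nerves are not stated in the labels. The p-values below therefore measure the spread between these libraries, which may be technical.

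Chemokines are small secreted proteins that guide cell migration by binding receptors coupled to G proteins. Ligands are grouped by the spacing of their conserved cysteines into CXC, CC and CX3C families, and most receptors accept ligands of 1 family only. CXCR4 signals in response to CXCL12, while ACKR3, also called CXCR7, binds CXCL12 and CXCL11 without classical G protein signalling and takes them up from the surroundings. CCR1 is a receptor of CC chemokines usually found on myeloid cells. CXCL1, CXCL2 and CXCL3 attract neutrophils through CXCR2, CCL2 attracts monocytes through CCR2, and CCL20 attracts cells that bear CCR6. CX3CL1, or fractalkine, is made as a membrane protein that tethers cells bearing CX3CR1 and is released by cleavage. In pancreatic cancer, chemokines of nerves and their receptors on tumour cells have been studied in perineural invasion, the growth of cancer along nerves.

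Gene counts summed to between 15113462 and 39373248 per library, and 27.6% to 60.6% of the entries of a library fell in categories that name no gene. This share was 27.6%, 27.6% and 34.7% in the parental libraries and 37.3% or more in every injected library. Entries without a unique alignment were 13.9% to 16.4% in parental libraries and 20.2% or more in injected ones. The part of these differences in the comparisons with parental cells was not tested. Replicates of a group differed by more than counting error, with a chi-square per degree of freedom of 21.3 to 238. Levels are given as CPM, read counts relative to the library total after TMM scaling, the trimmed-mean method of edgeR. The 5 genes listed for the line, KRT8, KRT18, VIM, MTAP and CDKN2A, summed to 5890 CPM or more in every library. MTAP had no count, and CDKN2A had 6 counts in all libraries together, all of them in laggers. The 12 leukocyte markers summed to 5.45 to 8.16 CPM in passage 1 leaders, 6.49 to 10.1 in passage 2, 5.92 to 16.8 in passage 3, 11.9 to 38.8 in passage 4, 3.31 to 6.95 in laggers and 1.99 to 5.81 in the parental line. PTPRC, the pan-leukocyte phosphatase CD45, had no count in laggers or parental cells. It averaged 2.23, 3.09, 2.51 and 0.675 CPM in leaders of passages 1, 2, 3 and 4. CD3E, LYZ, CD163, AIF1 and TYROBP had 1, 2, 3, 4 and 4 counts over all libraries. ITGAM, an integrin subunit of myeloid cells, had 2806 counts and LAPTM5 had 787, and ITGAM averaged 20.9 CPM in passage 4 leaders against 2.24 CPM in parental cells. Of the 5 leukocyte markers tested, 3 were called higher and 1 lower in passage 4 leaders than in parental cells. The shares of all tested genes called there were 14.8% higher and 12.9% lower. The 10 fibroblast markers summed to 1010 to 2310 CPM in passage 1 leaders, 739 to 1500 in passage 2, 550 to 1340 in passage 3, 234 to 496 in passage 4, 1270 to 2160 in laggers and 119 to 253 in the parental line. COL1A2 and COL3A1 made up most of that sum in the injected groups and COL1A1 in the parental line (160 CPM on average). FAP, a marker of activated fibroblasts, had 6 counts in all. DCN averaged 9.4 CPM in laggers and 0.187 in parental cells, and LUM 8.39 and 0.118. PDGFRA averaged 63.7 CPM in passage 2 leaders and 0.112 in parental cells. Of the 8 fibroblast markers tested, 5 were called higher and 0 lower in laggers than in parental cells, beside 21.5% and 17.8% of all tested genes. In passage 1 leaders 5 were called higher and 1 lower, beside 23.2% and 22.4%. The 7 endothelial markers summed to at most 13.5 CPM in any library. Of the 10 Schwann cell markers, SOX10 had 17 counts, S100B 12 and FOXD3 none. The Schwann list summed to 204 to 247 CPM in the parental line, nearly all of it MBP, and to 59.1 CPM or less in every injected group. Leader and lagger libraries thus differed from the parental ones in several of these lists, and their part in the results below was not tested.

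Changes were called with edgeR's quasi-likelihood test at a Benjamini-Hochberg adjusted p under 0.05 over 16187 genes, and 8 of the 9 genes had enough counts to be tested. Against the parental line, 4 of the 8 were called in passage 1 leaders, 3 higher and 1 lower, where 45.7% of all tested genes were called, 23.2% higher and 22.4% lower. In passage 2 leaders 5 were called, 2 higher and 3 lower, against 29.9% of all genes, 15.1% higher and 14.8% lower. In passage 3 leaders 7 were called, 2 higher and 5 lower, against 24.6% of all genes, 13.8% higher and 10.8% lower. In passage 4 leaders 4 were called, 2 higher and 2 lower, against 27.7% of all genes, 14.8% higher and 12.9% lower. In laggers 4 were called, 3 higher and 1 lower, against 39.3% of all genes, 21.5% higher and 17.8% lower. The shares in laggers and in passage 1 leaders were thus close to those of the whole table, and with 8 genes no share is precise. The passage 3 count fell to 3 without passage 3 replicate 1 and to 5 without any other single library of that comparison. These 5 comparisons share the parental libraries.

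**Figure D1:**
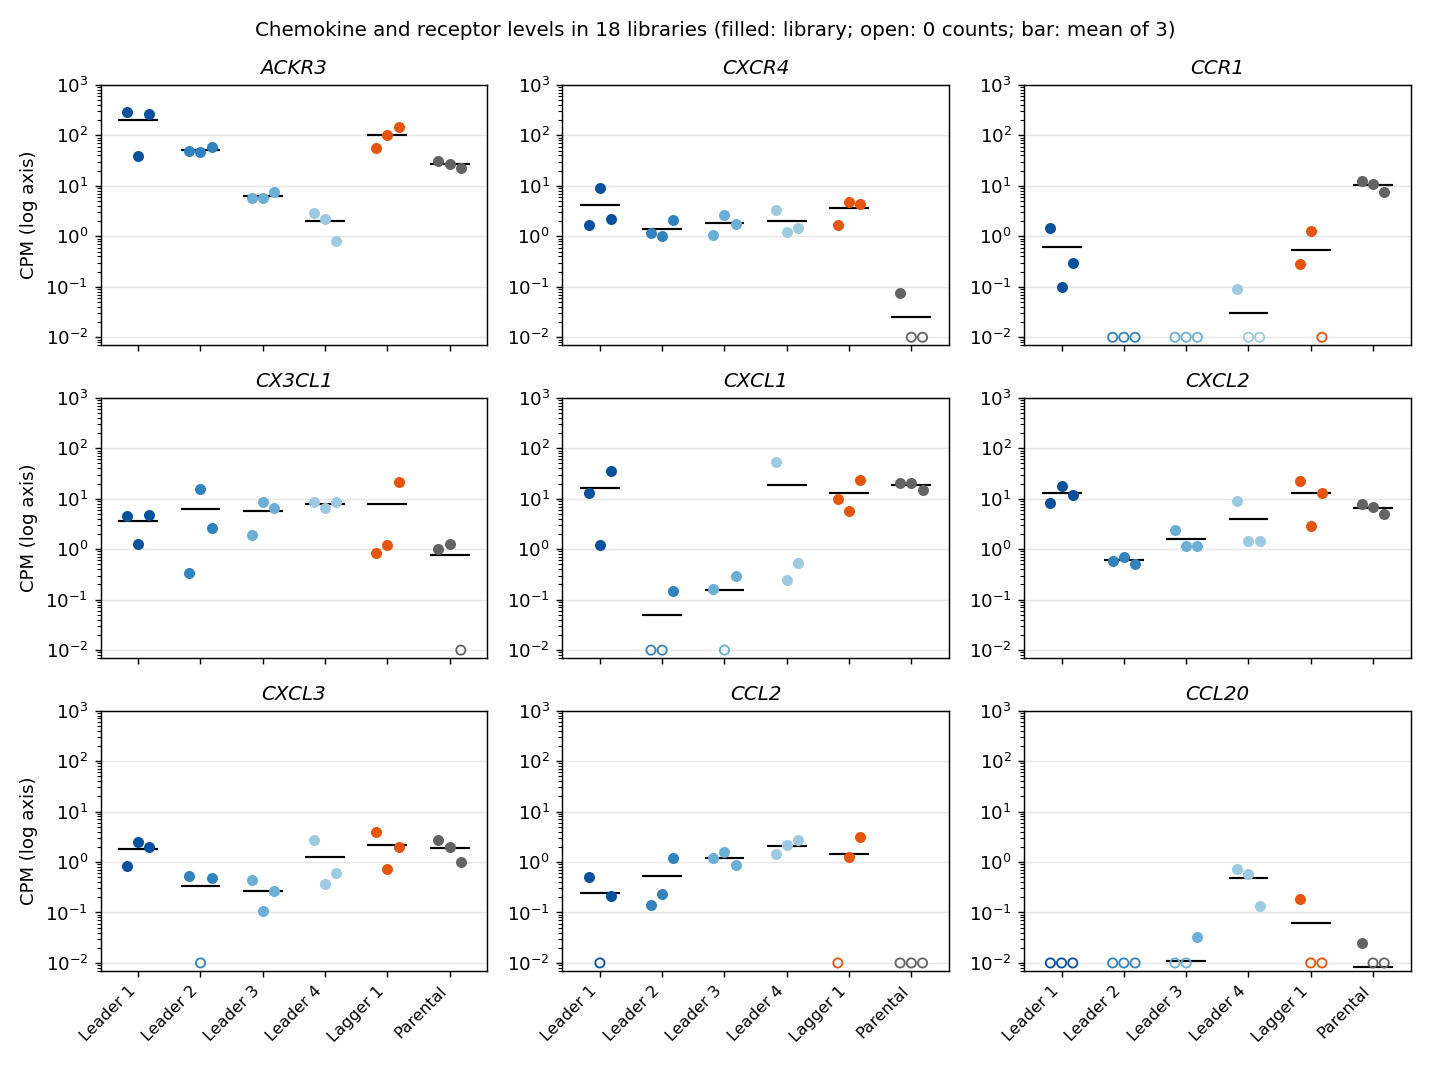
CPM of each of the 9 genes on a log axis, 1 panel per gene, for leaders of passages 1 to 4, laggers and the parental line; filled points are libraries, open points at 0.01 mark libraries with 0 counts, and bars are means of 3 libraries. ACKR3 has a mean of 199 CPM in passage 1, 51.3 in passage 2, 6.40 in passage 3 and 1.98 in passage 4 leaders, CXCR4 is at 1.03 CPM or more in every injected library, CCR1 is highest in the parental line, and 1 passage 4 library is at 54.1 CPM of CXCL1.

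ACKR3, the scavenging receptor, fell along the leader passages and had the highest mean level of the receptors in every group but passage 4 leaders. There CXCR4 averaged 2.02 CPM and ACKR3 1.98. The level of ACKR3 was 294, 38.9 and 263 CPM in passage 1 leaders, 48.7, 46.0 and 59.3 in passage 2, 5.75, 5.76 and 7.70 in passage 3 and 2.90, 2.21 and 0.826 in passage 4. Laggers had 56.7, 104 and 145 CPM, and parental cells 31.5, 27.4 and 22.4 CPM. The libraries of passages 2, 3 and 4 did not overlap each other, and passages 1 and 2 overlapped through passage 1 replicate 2, the lowest of its group. In these bulk libraries, fewer cells of a type and less RNA per cell cannot be told apart.

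Against parental cells, ACKR3 was higher in passage 1 leaders, with a log2 fold change of 2.87 ± 0.56 (SE; edgeR adjusted p = 0.000713, n = 3 each). It was also higher in laggers, at 1.91 ± 0.54 (SE; edgeR adjusted p = 0.0112). In passage 2 leaders the difference of 0.92 missed the threshold in the fit of all groups (95% interval -0.21 to 2.05, edgeR adjusted p = 0.205), and it was called when passage 2 and parental libraries were fitted alone (0.96, adjusted p = 0.00896). In passage 3 leaders ACKR3 was lower than in parental cells, at -2.08 ± 0.56 (SE; edgeR adjusted p = 0.0126), a call lost without passage 3 replicate 1 (adjusted p = 0.0548; the fits that each leave out 1 library gave 0.0238 to 0.0548). In passage 4 leaders it was lower by more, at -3.79 ± 0.61 (SE; edgeR adjusted p = 0.000329). ACKR3 thus lay above the parental level at passage 1 and below it at passages 3 and 4.

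Within the leaders, passage 4 against passage 1 called 1 of the 8 tested genes, and that gene was ACKR3, where 20.0% of all tested genes were called, 10.8% higher and 9.17% lower. The log2 difference was -6.67 ± 0.69 (SE; edgeR adjusted p = 1.45e-05), and it stayed between -7.18 and -6.27 when single libraries were left out. Over the 4 passages the linear trend was -2.30 ± 0.22 on the log2 scale per passage (SE; edgeR adjusted p = 5.63e-06), again the 1 gene called, against 21.1% of all tested genes, 11.7% rising and 9.38% falling. The number called for passage 4 against passage 1 was 2 without passage 1 replicate 2 or without passage 4 replicate 3, and 3 without passage 4 replicate 1. For the trend it was 3 without passage 2 replicate 3 or passage 4 replicate 1, and 2 without passage 2 replicate 1 or 2, passage 3 replicate 1 or 2, or passage 4 replicate 3. The summed fibroblast markers were also lowest in passage 4 among the leader passages, as listed above, and their part in the ACKR3 result was not tested.

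**Figure D2:**
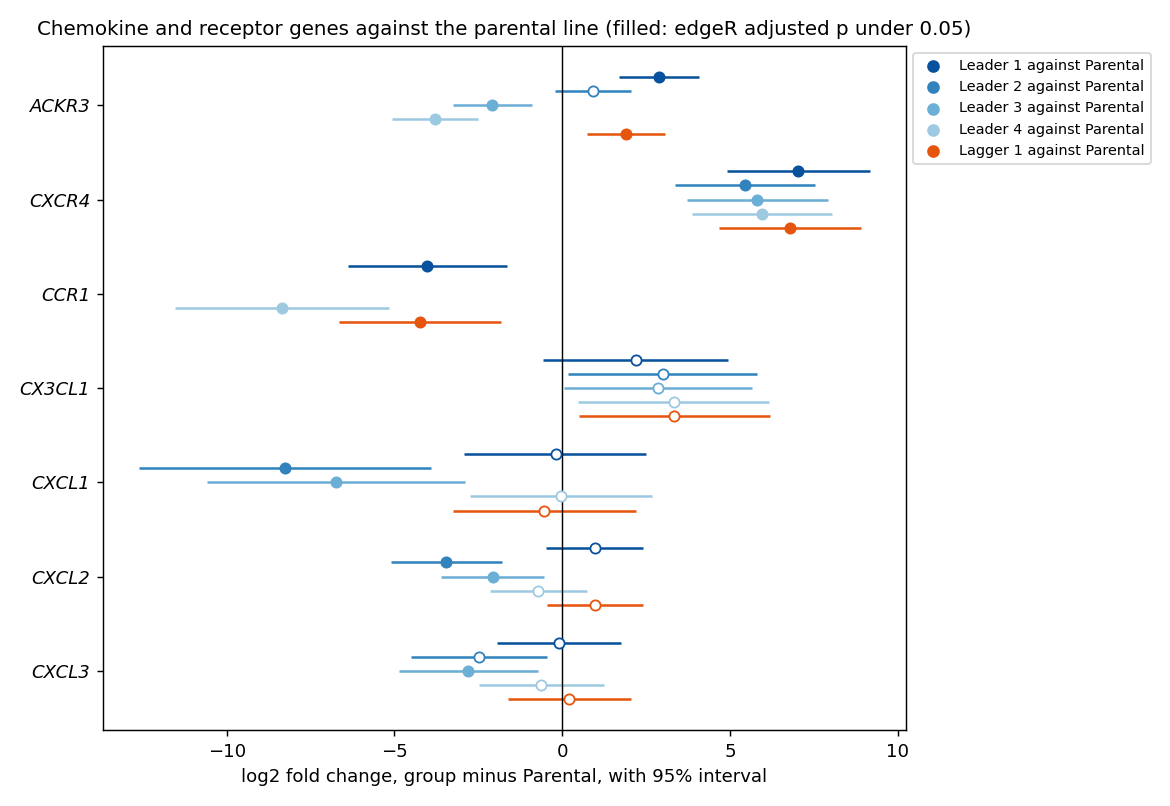
Log2 fold change of each group over the parental line with its 95% interval, for 7 of the genes, with rows for genes and colours for leaders of passages 1 to 4 and laggers; filled points have an edgeR adjusted p under 0.05, and CCR1 at passages 2 and 3, where it had no counts, is not drawn. ACKR3 lies at 2.87 in passage 1 and -3.79 in passage 4 leaders, CXCR4 lies right of 0 in all 5 groups, and every CX3CL1 point is open.

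CXCR4, the signalling receptor for CXCL12, was nearly absent from the parental line and present at a low level in every injected group. Passage 1 leaders had 1.66, 8.91 and 2.20 CPM, passage 2 had 1.15, 1.03 and 2.06, passage 3 had 1.05, 2.67 and 1.75, and passage 4 had 3.39, 1.21 and 1.45. Laggers had 1.70, 4.74 and 4.41 CPM, and the 3 parental libraries together held 3 counts, all in replicate 1. Every injected library lay above every parental one.

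Since the parental total was 3 counts, the CXCR4 difference is given as a ratio of summed counts, scaled by library size, with its counting interval. It was 138-fold in passage 1 leaders (95% interval 46.7 to 673), 52.1-fold in passage 2 (17.3 to 257), 64.5-fold in passage 3 (21.6 to 317) and 68.9-fold in passage 4 (23.1 to 338). In laggers it was 125-fold (42.0 to 610). Without passage 1 replicate 2 the passage 1 ratio was 67.8. The edgeR adjusted p was 5.43e-05 in passage 1 leaders, 0.000778 in passage 2, 0.000576 in passage 3, 0.000427 in passage 4 and 9.64e-05 in laggers, and no library left out ended a call. Passage 4 leaders did not differ detectably from passage 1 leaders (log2 difference -1.07, 95% interval -2.56 to 0.41), and without passage 1 replicate 2 the difference was 0.03. The CXCR4 ligand CXCL12 had 1 count in all 18 libraries together.

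CCR1 had the opposite pattern and was detected mainly in the parental line. Passage 1 leaders had 1.47, 0.0990 and 0.291 CPM, passages 2 and 3 had no count in any of their 6 libraries, and passage 4 had 2 counts, both in replicate 1. Laggers had 0.283, 1.29 and 0 CPM, and parental cells 12.4, 10.9 and 7.73 CPM. Every injected library lay below every parental one.

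The log2 fold change of CCR1 against parental cells was -4.02 ± 1.08 in passage 1 leaders (SE; edgeR adjusted p = 0.00937) and -4.24 ± 1.11 in laggers (SE; edgeR adjusted p = 0.0095). With a floor of 3 counts over the group, CCR1 was at least 247-fold lower in passage 2 leaders (edgeR adjusted p = 0.000913) and at least 239-fold lower in passage 3 (edgeR adjusted p = 0.00118). In passage 4 the 2 counts gave a ratio of 409-fold lower (95% counting interval 113 to 3380, edgeR adjusted p = 0.00145). Passage 4 against passage 1 leaders missed the threshold, at -4.33 (95% interval -7.51 to -1.15, edgeR adjusted p = 0.055), and the passage trend had no usable standard error because 2 passages had no counts (edgeR adjusted p = 1). DESeq2 called the passage 4 difference (adjusted p = 0.0195) and the trend (adjusted p = 0.035), and single libraries left out gave edgeR adjusted p values of 0.0448 to 0.264.

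CXCL1, CXCL2 and CXCL3, the neutrophil-attracting CXC ligands, are neighbours on chromosome 4 with closely similar promoters. The 100 bases before the RefSeq start site (GRCh38.p14) are shown because all 3 genes were called lower than in parental cells at passage 3, and CCL20 is shown as a chemokine with a similar motif in another setting. Capitals mark matches to GGGANNNNCC, a letter pattern of NF-kB sites, on either strand; in the 3 CXCL genes the forward and reverse matches overlap by all but 1 base.
CXCL1, chr4:73869293-73869392, plus strand: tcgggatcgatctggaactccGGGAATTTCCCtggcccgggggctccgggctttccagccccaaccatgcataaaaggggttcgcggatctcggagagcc
CXCL2, chr4:74099196-74099295, minus strand: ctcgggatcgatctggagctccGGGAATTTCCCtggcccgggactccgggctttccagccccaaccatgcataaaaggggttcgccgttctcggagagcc
CXCL3, chr4:74038690-74038789, minus strand: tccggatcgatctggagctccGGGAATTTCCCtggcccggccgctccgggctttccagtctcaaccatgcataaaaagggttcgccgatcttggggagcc
CCL20, chr2:227813742-227813841, plus strand: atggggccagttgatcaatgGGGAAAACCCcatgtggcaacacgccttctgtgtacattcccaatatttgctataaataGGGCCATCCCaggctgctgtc

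The CXCL1 window was 95% identical, after alignment, to that of CXCL2 and 90% to that of CXCL3, and CXCL2 and CXCL3 were 91% identical. The exact letters GGGAATTTCC are those of the match to GGGANNNNCC in CXCL1 itself, so their presence there is given. They begin 79 bases before the start site in CXCL1 and CXCL3 and 78 in CXCL2. On either strand they occur in 51 of 35116 promoter windows of 300 bases, or 0.145%. Since the windows of CXCL1, CXCL2 and CXCL3 are so similar, this share does not measure how unusual their common site is. The looser pattern GGGANNNNCC occurs in 25.6% of those windows, so a match to it is common. RefSeq's table matched 6 of the 9 genes, and ACKR3, CX3CL1 and CCL2 are named only. CXCR4 has 3 windows in the table, and 1 of them holds a match to the looser pattern, GGGAGTGGCC, 54 bases before its start. The transcripts share sequence too: 4.81% of the 50-base windows of CXCL1, 12.5% of CXCL2 and 6.01% of CXCL3 occur in another transcript of GENCODE 29, in each case of this trio. Reads that lie wholly in such stretches may not have been placed on 1 gene, so the levels of the 3 may be less certain than those of the receptors. The share of reads affected was not measured.

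CXCL1 was well expressed in parental cells and nearly silent at passages 2 and 3. Passage 1 leaders had 12.8, 1.19 and 34.7 CPM, passage 2 had 0, 0 and 0.147, passage 3 had 0.166, 0 and 0.297, and passage 4 had 54.1, 0.250 and 0.529. Laggers had 9.78, 5.65 and 23.7 CPM, and parental cells 20.8, 20.1 and 15.2 CPM. The libraries of passages 2 and 3 lay below all parental ones, while passage 1 leaders and laggers overlapped with parental cells and passage 4 replicate 1 was the highest of all 18.

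The log2 fold change of CXCL1 against parental cells was -8.25 ± 2.05 in passage 2 leaders (SE; edgeR adjusted p = 0.00694) and -6.74 ± 1.82 in passage 3 (SE; edgeR adjusted p = 0.013). The passage 3 call was lost without passage 3 replicate 1 (adjusted p = 0.0552; range over single libraries left out 0.0235 to 0.0552). In passage 4 the difference was -0.04 (edgeR adjusted p = 0.992), and without passage 4 replicate 1 it was -5.55 (adjusted p = 0.00618; range 0.00618 to 1). Against passage 1 leaders, passage 4 differed by 0.17 with all libraries and by -5.34 without that replicate (adjusted p = 0.0108; range 0.0108 to 0.997). The CXCL1 result at passage 4 therefore rests on 1 library.

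CXCL2 had 8.39, 18.2 and 12.0 CPM in passage 1 leaders, 0.573, 0.703 and 0.516 in passage 2, 2.38, 1.17 and 1.16 in passage 3, and 9.16, 1.42 and 1.45 in passage 4. Laggers had 22.9, 2.87 and 13.0 CPM, and parental cells 7.71, 6.92 and 5.03 CPM. All passage 1 leaders lay above all parental libraries, all libraries of passages 2 and 3 below them, and passage 4 was split by the same replicate 1. In passage 2 leaders the log2 fold change was -3.45 ± 0.78 (SE; edgeR adjusted p = 0.00368).

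In passage 3 leaders CXCL2 was lower, with a log2 fold change of -2.07 ± 0.72 (SE; edgeR adjusted p = 0.0458), a call lost without any 1 of the 6 libraries (adjusted p 0.0636 to 0.137). In passage 4 the difference was -0.72 (edgeR adjusted p = 0.469), and without passage 4 replicate 1 it was -2.19 (adjusted p = 0.0271; range 0.0271 to 0.818). Against passage 1 leaders, passage 4 differed by -1.68 (edgeR adjusted p = 0.0967), and by -3.15 without that replicate (adjusted p = 0.00712; range 0.00712 to 0.301). In passage 1 leaders CXCL2 was not called against parental cells (0.97, edgeR adjusted p = 0.257), nor in laggers (0.98, adjusted p = 0.265).

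CXCL3 was present at a low level in all groups. It had 0.847, 2.52 and 1.99 CPM in passage 1 leaders, 0.525, 0 and 0.479 in passage 2, 0.443, 0.107 and 0.264 in passage 3, and 2.77, 0.375 and 0.595 in passage 4. Laggers had 3.92, 0.719 and 1.96 CPM, and parental cells 2.74, 1.97 and 0.999 CPM. Against parental cells it was -2.80 ± 0.98 in passage 3 leaders (SE; edgeR adjusted p = 0.0475), a call lost without any 1 of the 6 libraries (adjusted p 0.0557 to 0.135). In passage 2 leaders the value was -2.48 (edgeR adjusted p = 0.0601), which passed with DESeq2 (adjusted p = 0.0252).

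IL8, CXCL5 and CXCL6, other neutrophil-attracting ligands of the family, had the same high library at passage 4, while PPBP, a further one, had no count in passage 4. IL8, the older name of CXCL8 used in the table, had 65.0, 1.46 and 0.0991 CPM in passage 4 leaders, against 61.9, 7.17 and 106 in passage 1 leaders. CXCL5 had 54.3, 2.08 and 0.628 CPM in passage 4 leaders, against 16.7, 2.52 and 22.8 in passage 1 leaders, and CXCL6 had 128, 0 and 0 CPM in passage 4 leaders, against 7.32, 0 and 7.60 in passage 1 leaders. In each of these genes passage 4 replicate 1 stood far above its 2 partners, and passage 1 replicate 2 stood lowest in its group. Parental cells had 11.7, 18.6 and 6.70 CPM of IL8 and 38.5, 60 and 25.7 CPM of CXCL5. IL1B, an inducer of these ligands, had 81.3, 1.79 and 1.55 CPM in passage 4 leaders and no count in parental cells. PTPRC was 1.03, 0.999 and 0 CPM in the same 3 passage 4 libraries and ITGAM 9.51, 18.4 and 34.8 CPM. Replicate 1 thus had the lowest ITGAM of its group and a PTPRC level close to that of replicate 2. Of the 12 leukocyte markers, only PTPRC and ITGAM are given by library here. The part of leukocyte RNA in these values was not tested.

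**Figure D3:**
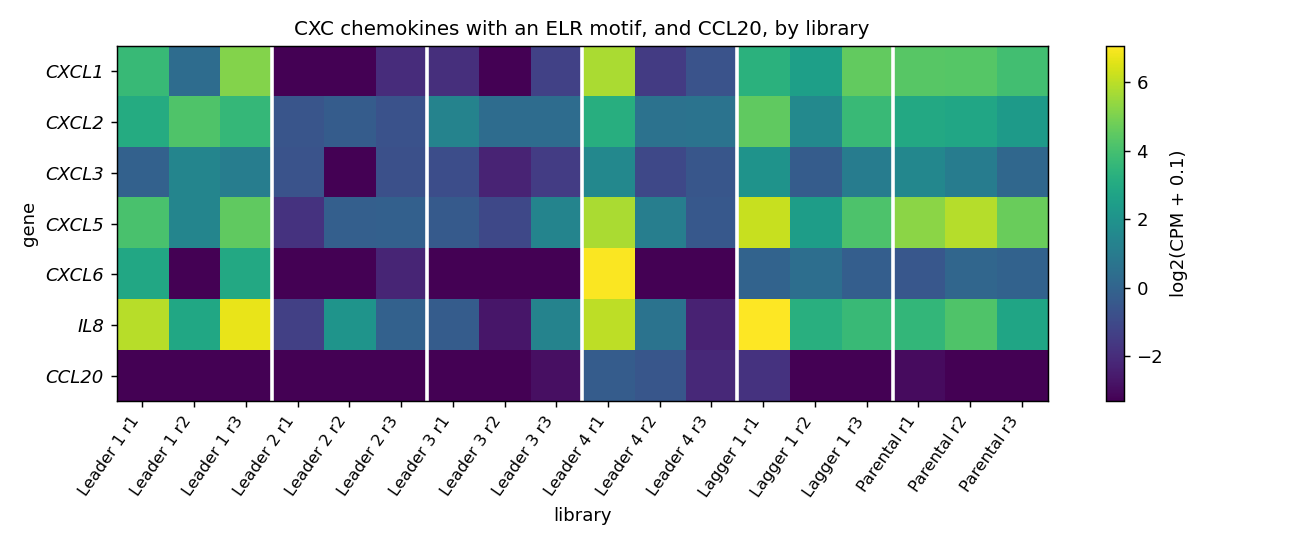
Heat map of log2(CPM + 0.1) for CXCL1, CXCL2, CXCL3, CXCL5, CXCL6 and IL8, which are CXC ligands with the ELR amino acid motif of neutrophil attractants, and for CCL20, with rows for genes and columns for libraries (leaders of passages 1 to 4, laggers, parental; r is the replicate). Passage 4 replicate 1 is brighter than its 2 partners in every row, at 54.1 CPM for CXCL1 and 128 CPM for CXCL6, and passages 2 and 3 are the darkest groups for CXCL1.

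CX3CL1, the membrane-bound ligand, was scattered between replicates, and the fit of all libraries called it in no comparison. It had 4.53, 1.29 and 4.86 CPM in passage 1 leaders, 0.334, 15.7 and 2.58 in passage 2, 1.88, 8.48 and 6.51 in passage 3, and 8.49, 6.41 and 8.46 in passage 4. Laggers had 0.850, 1.2 and 21.9 CPM, and parental cells 0.995, 1.28 and 0 CPM. The libraries of each of passages 1, 3 and 4 lay above all parental ones, and passage 2 and lagger values overlapped with them.

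Passage 4 had the tightest CX3CL1 values, 7.78 ± 1.19 CPM (SD, n = 3) against 0.757 ± 0.671 CPM in parental cells (SD, n = 3). The log2 fold change was 3.32 (95% interval 0.48 to 6.16) with an edgeR adjusted p of 0.0757, and DESeq2 called it (adjusted p = 0.0428). Over single libraries left out the edgeR adjusted p was 0.104 to 0.194. With passage 4 and parental libraries fitted alone, edgeR called it (adjusted p = 0.0185), and with no filter on low counts it was called in passages 2, 3 and 4 and in laggers (adjusted p 0.0132 to 0.04). In laggers the edgeR adjusted p was 0.0585 and DESeq2 gave 0.0331. For a ratio, counts summed over a group were scaled by the summed library size. CX3CL1 was then 7.47-fold the parental level with all 3 laggers and 1.21-fold without replicate 3. Without lagger replicate 1 edgeR called it (adjusted p = 0.0348), and without lagger replicate 2 as well (0.0424; range over single libraries 0.0348 to 0.799). In passage 2 leaders CX3CL1 was 7.0-fold the parental level by the same summed counts, and 1.89-fold without replicate 2.

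CCL2, the monocyte attractant, had no count in any parental library. It had 0.515, 0 and 0.208 CPM in passage 1 leaders, 0.143, 0.234 and 1.18 in passage 2, 1.22, 1.6 and 0.859 in passage 3, 1.43, 2.16 and 2.78 in passage 4, and 0, 1.25 and 3.08 in laggers. Passage 4 lay above all libraries of passages 1 and 2. The level stayed low throughout, with 19 counts in passage 1, 40 in passage 2, 78 in passage 3, 168 in passage 4 and 70 in laggers.

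Against parental cells, with a floor of 3 counts over that group, CCL2 was at least 9.43-fold higher in passage 1 leaders (edgeR adjusted p = 0.0307), 20.4-fold in passage 2 (0.017), 41.2-fold in passage 3 (0.00772) and 77.7-fold in passage 4 (0.00384). In laggers it was at least 44.1-fold higher (edgeR adjusted p = 0.00389). The passage 1 call was lost without passage 1 replicate 1 (bound 4.00-fold, adjusted p = 0.121) and without parental replicate 1, 2 or 3 (0.0762, 0.0700 and 0.0661; range over single libraries 0.0176 to 0.121). The passage 2 call was lost without passage 2 replicate 3 (bound 6.71-fold, adjusted p = 0.0879; range 0.019 to 0.0879), and the lagger bound was 21.9-fold without lagger replicate 3. Over the leader passages the trend of 1.04 per passage on the log2 scale missed the threshold (95% interval 0.21 to 1.88, edgeR adjusted p = 0.0729), and DESeq2 called it (adjusted p = 0.0369). It was also called without passage 2 replicate 3 (edgeR adjusted p = 0.0495; range 0.0495 to 0.174).

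CCL20 had too few counts to be tested. Passage 4 leaders had 0.715, 0.583 and 0.132 CPM, 34 counts in all, passages 1 and 2 had none and passage 3 had 1 count. Laggers had 4 counts, all in replicate 1, and parental cells 1 count. The passage 4 level was at least 10.6-fold that of passage 1 leaders, by the same floor, and 47.2-fold that of parental cells, with a 95% counting interval of 7.91 to 1920.

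Passage 1 leaders and laggers are the 2 kinds of cells recovered at the same passage. None of the 8 genes was called between them with edgeR or with DESeq2, none had an unadjusted edgeR p under 0.05, and only 0.0618% of all tested genes were called, 0.0185% higher and 0.0432% lower in leaders. ACKR3 was 199 ± 139 CPM in leaders and 102 ± 44.0 CPM in laggers (SD, n = 3 each), a log2 difference of 0.97 (95% interval -0.16 to 2.09, edgeR adjusted p = 0.397). CCL2 was 0.241 CPM in leaders and 1.44 CPM in laggers on average, a difference of -2.49 (95% interval -5.13 to 0.15, edgeR adjusted p = 0.362). CXCR4 differed by 0.23 (95% interval -1.24 to 1.70) and CCR1 by 0.22 (95% interval -2.07 to 2.5).

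The spread between replicates was larger for most of these genes than for the table as a whole. The biological coefficient of variation fitted by edgeR was 45.1% for ACKR3, 56.9% for CXCR4, 57.5% for CXCL2, 71.5% for CXCL3, 89.0% for CCR1, 94.6% for CCL2, 102% for CX3CL1 and 115% for CXCL1, against a median of 30.0% over all tested genes. ACKR3 and CXCR4 are the members with the smallest spread.

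Per length of exon in GENCODE 29, ACKR3 was the most abundant of the 9 genes in most injected groups. Its level was 88.1 CPM per kilobase in passage 1 leaders, 22.7 in passage 2, 2.84 in passage 3 and 45.1 in laggers, the highest of the 9 in each of these groups. In passage 4 leaders it was 0.876 CPM per kilobase and the sixth of the 9, while CXCL1 led at 14.1, through 1 library. In parental cells CXCL1 led at 14.4 CPM per kilobase and ACKR3 was next at 12.0.

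The genes with the most similar profiles were sought among 10922 protein-coding genes, by the root mean square difference of centred log2 CPM over the 18 libraries. For ACKR3 they were FOXL1 (1.06), MEST (1.19) and CCDC73 (1.26), against an SD of ACKR3 itself of 2.31. For CXCR4 they were S100A2 (0.63), S100A4 (0.69) and ATF3 (0.71), against an SD of 1.85. For CCR1 they were CACNG7 (1.31), TNFSF18 (1.41) and AKR1C1 (1.44), against 2.60. For CXCL1 the 3 nearest were other chemokines, CXCL5 (1.21), CXCL6 (1.82) and IL8 (1.84), against an SD of 3.31, and the nearest to CXCL3 was CXCL2 (0.88), with which it shares sequence. For CCL2 they were ECM1 (0.97), ITGA3 (1.07) and CD82 (1.07), against 1.93. CX3CL1 was nearest to TRIB2 (1.29) and CXCL2 to GOLGA8A (1.14), differences not far below their own SDs of 1.96 and 1.68. These are distances over libraries that share groups.

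Of 42 other chemokine ligands in the table, 7 were tested and 16 had no count in any library. CXCL16, a membrane-bound ligand of CXCR6, was called higher in passage 1 leaders (33.7 CPM on average), passage 2 (28.7), passage 3 (28.3) and laggers (26.4) than in parental cells (12.7). Its log2 fold change was 1.4 in passage 1 (edgeR adjusted p = 0.00227), 1.17 in passage 2 (0.0122), 1.16 in passage 3 (0.0154) and 1.06 in laggers (0.016). CXCL5 was called lower in passage 2 leaders (-6.08, adjusted p = 0.00747) and passage 3 (-5.06, adjusted p = 0.0171). CCL26, an eosinophil attractant, was called lower in passage 1 leaders (-5.94, adjusted p = 0.00895), passage 2 (-7.16, 0.00954) and passage 3 (-7.10, 0.0121), against 2.82 CPM in parental cells. CCL22 was called lower in laggers, at 0.142 CPM against 4.17 CPM in parental cells (-4.72, adjusted p = 0.00378).

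No other ligand was called by edgeR or DESeq2 in passage 4 leaders against parental cells, where 1 had an unadjusted edgeR p under 0.05. Of 19 other chemokine receptors 5 were tested. CCR10 was called lower in passage 4 leaders, at 0.852 CPM against 3.04 CPM in parental cells (-1.83, edgeR adjusted p = 0.013). CCR7 and CCR6, which had no count in parental cells, were called higher, CCR7 in passage 1 leaders, at 0.763 CPM on average (edgeR adjusted p = 0.0151), and CCR6 in laggers, at 0.396 CPM (edgeR adjusted p = 0.0471). DESeq2 called neither CCR7 in passage 1 leaders nor CCR6 in laggers, nor any other receptor of this list in these comparisons. In passages 2 and 3 no other receptor was called by edgeR or DESeq2, with 1 and 0 under an unadjusted edgeR p of 0.05.

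Genes that carry or dampen the receptor signal moved in both directions. Of 23 tested, 7 were called higher and 7 lower in passage 1 leaders, 8 and 3 in passage 2, 8 and 2 in passage 3, 6 and 3 in passage 4, and 7 and 6 in laggers, each against parental cells. Over all tested genes the shares called higher and lower were 23.2% and 22.4% in passage 1, 15.1% and 14.8% in passage 2, 13.8% and 10.8% in passage 3, 14.8% and 12.9% in passage 4, and 21.5% and 17.8% in laggers. The list's median log2 fold change was -0.05 in passage 1, 0.13 in passage 2, 0.01 in passage 3, 0.12 in passage 4 and 0 in laggers, beside medians over all tested genes of 0.07 in passage 1, 0 in passage 2, 0.01 in passage 3, 0.03 in passage 4 and 0.09 in laggers.

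RGS2, which speeds the shutdown of G protein signals, stood out among them by size. It averaged 291 CPM in passage 1 leaders, 93.0 in passage 2, 51.0 in passage 3, 49.7 in passage 4 and 487 in laggers, against 1.39 CPM in parental cells. Its log2 fold change was 7.69 in passage 1 leaders (edgeR adjusted p = 1.93e-07) and 8.43 in laggers (1.02e-07). Between passage 4 and passage 1 leaders RGS2 fell by 2.55 ± 0.45 on the log2 scale (SE; edgeR adjusted p = 0.00119). GNG2, a G protein gamma subunit, was higher than in parental cells in every injected group, by 3.71 to 5.0 on the log2 scale (edgeR adjusted p 0.000207 to 0.000814). GRK6, a kinase that desensitizes such receptors, and ARRB2, the arrestin that follows it, were lower in every injected group, with log2 fold changes in passage 1 leaders of -1.69 for GRK6 (edgeR adjusted p = 7.59e-05) and -1.55 for ARRB2 (edgeR adjusted p = 0.000131).

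Of 9 tested genes that process or display chemokines, 2 were called higher and 2 lower in passage 1 leaders, 2 and 2 in passage 2, 1 and 1 in passage 3, 2 and 1 in passage 4, and 2 and 2 in laggers. Over all tested genes, the share called was 45.7% in passage 1, 29.9% in passage 2, 24.6% in passage 3, 27.7% in passage 4 and 39.3% in laggers, so these counts are near the background. SDC1, a heparan sulfate proteoglycan that holds chemokines at the surface, was higher in each, with 310 CPM in passage 3 leaders against 115 CPM in parental cells (1.43, edgeR adjusted p = 0.00947). HPSE, the enzyme that cuts heparan sulfate, was lower in each, with 1.56 CPM in passage 4 leaders against 11.4 CPM in parental cells (-2.86, edgeR adjusted p = 0.00193). The list's median log2 fold change lay between -0.11 and 0.44 over these groups.

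All 21 genes of a list of NF-kB feedback genes and chemokine inducers were tested. Against parental cells, 7 were called higher and 8 lower in passage 1 leaders, 4 and 3 in passage 2, 3 and 2 in passage 3, 10 and 1 in passage 4, and 8 and 5 in laggers. The shares of all tested genes called higher and lower were 23.2% and 22.4% in passage 1, 15.1% and 14.8% in passage 2, 13.8% and 10.8% in passage 3, 14.8% and 12.9% in passage 4, and 21.5% and 17.8% in laggers. Between passage 4 and passage 1 leaders 7 were called higher and none lower by edgeR, beside 10.8% and 9.17% of all tested genes, with 13 under an unadjusted p of 0.05, while DESeq2 called 9 higher and 3 lower. The list's median log2 difference there was 0.74, beside -0.02 over all tested genes.

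ZFP36, which destabilizes inflammatory transcripts, averaged 362 CPM in passage 1 leaders, 488 in passage 2, 619 in passage 3, 726 in passage 4 and 431 in laggers, against 55.7 CPM in parental cells. It was called in all 5 groups, with a log2 fold change of 3.70 in passage 4 (edgeR adjusted p = 5.92e-06). NFKBIZ, an inducible cofactor of NF-kB, was also called higher in all 5, by 2.95 in passage 1 leaders (edgeR adjusted p = 5.64e-06) and 3.54 in laggers (1.39e-06). TNFAIP3, the inhibitor A20, averaged 60.5 CPM in passage 4 leaders against 6.25 CPM in parental cells (3.28, edgeR adjusted p = 0.000472). ZFP36 and NFKBIZ were thus higher at passages 2 and 3, where CXCL1, CXCL2 and CXCL5 were called lower than in parental cells. They were also higher in passage 1 leaders and laggers, where CXCL1 and CXCL2 were not called. A link between these genes was not tested.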

How the data were processed

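Low-input RNA was amplified without strand marking by the SMART-Seq v4 method and read from both ends, per the labels' protocols. The authors deposited raw counts per gene in 1 table. The submitters' processing notes name, with no role for each, cutadapt (version 1.6), STAR (version 2.5.0a), HTSeq (version 0.5.3) and DESeq (version 1.22.1). No build or annotation is named in the labels or the table. Entries that name no gene (27.6% to 60.6% of a library) were left out.

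Of 57445 genes, 16187 passed edgeR's expression filter. A model of the 18 libraries with a mean for each group was tested with edgeR 4.0.16 (R 4.3.3) by quasi-likelihood F tests for 8 comparisons, after TMM scaling, with adjustment over all tested genes within each comparison. A called gene had an adjusted p under 0.05. The script was tested on simulated data. Alternatives were DESeq2 1.42.0, its size factors, no filter, only the compared groups, a replicate block and each library left out, and, added after seeing the data, 17 libraries without passage 3 leader replicate 2, whose unaligned share of 24.8% was the highest.

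The 9 genes and the lists were chosen with earlier results of these data known. From each other list, up to 4 genes per comparison could be named, those called with the smallest adjusted p and at least 1 CPM in the higher group; IL8, CXCL6, PPBP, CCR6, CCR7, PTPRC, ITGAM and the single-library values of IL1B were added after their values were seen. Same-numbered laggers and parental libraries deviated in the same direction (correlations of deviations from the group means of 0.106, 0.127 and 0.401). The labels name no pairs, and not every library correlated best with its own number, so a pairing is not established. The values printed come from the fit without a block, and the block left the same 4 genes called. In no other comparison was every such correlation positive. Counting intervals and floors cover counting error only, since amplified reads without molecular identifiers are not independent molecules. Promoter sequences are RefSeq's (GRCh38.p14); lengths and shared windows come from GENCODE 29, whose build may not be that of the counts.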

Additional observations from a re-analysis of the deposited data

How the results depend on the processing

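Of 64 pairs of gene and comparison, 14 changed sign under some setting, and none of those 14 was called with the settings of the report. Outside the planned fits that left out 1 library, 343 values kept direction and call, 22 gained a call, 2 lost one and 11 changed sign. These counts include the fit of 17 libraries, which left out 1 library as well. With only the compared groups, CCL2 did not pass the filter and was not tested in laggers or in leaders of passages 1 and 2 against parental cells, where it was called in the report. The 2 lost calls were CXCL2 (-1.87) and CXCL3 (-2.41) in passage 3 leaders against parental cells, with 17 libraries. Log2 differences that changed sign were, for passage 1 leaders against laggers, CXCL2 with DESeq2 size factors (0.01), no filter (0.04), the replicate block (0.30), only the compared groups (0.03), DESeq2 (0.01) and 17 libraries (0.03), and CXCL1 (-0.15) and CXCL3 (0.22) with the block. With the replicate block CXCL3 also changed sign in laggers (-0.05) and passage 1 leaders (0.17) against parental cells, and CXCL1 in passage 4 against passage 1 leaders (-0.10).

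The number of the 9 genes called in passage 4 against passage 1 leaders was 1 with the report's settings and 5 with no filter, 2 with the replicate block, 2 with only the compared groups, 3 with DESeq2 and 2 with 17 libraries. For the passage trend it was 1, and 3 with no filter, 2 with only the compared groups, 3 with DESeq2 and 2 with 17 libraries. With single libraries left out it was 1 to 3 for both, and 3 to 5 for passage 3 leaders against parental cells (7 with all libraries). The block gave 6 called genes in passage 2 leaders. Apart from laggers and parental libraries, same-numbered libraries did not all deviate in the same direction. In no comparison did every library correlate best with its own number. A block changed no other count of called genes.

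Leaving out 1 library gave sign changes with these ranges. For passage 1 leaders against laggers they were -0.84 to 0.62 for CXCR4, -1.66 to 1.80 for CX3CL1, -1.43 to 1.97 for CCR1, -0.88 to 1.08 for CXCL1, -0.49 to 0.82 for CXCL2 and -0.73 to 0.53 for CXCL3. CXCL3 ranged from -0.58 to 0.63 in laggers and -0.41 to 0.24 in passage 1 leaders against parental cells, and CXCL1 from -1.42 to 0.40 in passage 1 and -5.55 to 0.57 in passage 4 leaders. For passage 4 against passage 1 leaders CXCR4 ranged from -1.66 to 0.03 and CXCL1 from -5.34 to 1.38, and for the trend CXCR4 from -0.46 to 0.04 and CXCL1 from -1.45 to 0.56. The cause of these changes was not tested. Over the whole table, passage 1 leaders against laggers had 10 called genes with edgeR (2338 at an unadjusted p under 0.05), 372 with DESeq2, 257 with no filter, 3 with the replicate block and 0 with only the compared groups. Laggers against parental cells had 6363, and 3355 with only the compared groups. Depth limits CXCR4, CCL2, CCL20 and CCR1, whose low groups hold a few counts or none.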
